A study of Mus musculus with 20 samples.

Results

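The 4 array probes of mouse footpad skin, Z00077373-1, Z00036698-1, Z00020870-1 and Z00062492-1, were followed over 20 arrays. They are 4 of the 42006 distinct probes on the array, and they were chosen by their measured values: a lower signal in Tabby than in wild-type (WT) footpads from E17.5 or P1 on, with a transient course in WT for the first pair and a course rising to the adult for the second. No numerical threshold was part of that choice. The Tabby minus WT differences and the courses over the stages below are therefore descriptions and carry no p-value.

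Footpad skin was dissected from WT and Tabby mice, both labelled C57BL6/J, late in gestation (E17.5, in embryonic days), on postnatal days P1, P3 and P5, and in adults (P56), with 2 biological replicates in each of the 10 groups. The title of the series names ion channels, for potassium and chloride, in eccrine sweat glands. Total RNA of the footpad was labelled with Cy3 and hybridised against a Cy5-labelled reference, pooled from mouse cell lines and embryonic stem cells, that was described alike for all arrays. The labels do not say how many animals gave a sample, nor which Tabby allele or sex was used.

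Tabby is a mutation of the mouse gene for ectodysplasin A, a signalling protein of the tumour necrosis factor family. It acts through the receptor Edar and the adaptor Edaradd on NF-kB in the ectoderm, where hair follicles, teeth and sweat glands begin as placodes. In mice the eccrine sweat glands lie in the footpads. Their buds form late in gestation, the ducts and coils develop during the first days after birth, and the secretory part matures later. In Tabby mice these glands do not form. In whole footpad skin, fewer cells of a type and less RNA per cell cannot be told apart.

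The files name each probe by a Z-number only and mark every one as unmapped, so no gene, exon or genome position is given here, and neither the Eda transcript nor cell type markers could be checked. What identifies the 4 probes is the sequence of 60 bases spotted on the array. They are shown because these sequences are the only link from the values to a transcript, with AATAAA, or its reverse complement TTTATT, in capitals.
Z00077373-1: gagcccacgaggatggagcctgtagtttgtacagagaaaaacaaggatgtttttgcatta
Z00036698-1: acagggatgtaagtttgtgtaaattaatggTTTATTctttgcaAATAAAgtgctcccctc
Z00020870-1: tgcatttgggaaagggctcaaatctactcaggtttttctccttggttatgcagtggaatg
Z00062492-1: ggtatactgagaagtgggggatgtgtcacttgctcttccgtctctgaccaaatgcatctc

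None of the 4 shares 30 or more consecutive bases, on either strand, with another member or any other probe of the array. Whether any of them report a common transcript could not be checked, since no probe is placed on a gene. Their spots lie apart, in rows 101, 170, 231 and 6 of the array in the order above. The GC content was 43.3% for Z00077373-1 and Z00020870-1, the median over all probes, 35.0% for Z00036698-1 and 50% for Z00062492-1. Z00036698-1 has lower GC than most of the array: 6.43% of probes had less. It is also the only one of the 4 with AATAAA, the hexamer known as the polyadenylation signal, which 6.93% of all probes carry in the printed direction and 3.36% as TTTATT. Both directions together, as in Z00036698-1, occurred in 0.2% of probes.

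The level used below is the log2 ratio of footpad over reference after background correction and loess adjustment within each array. The correction adds an offset to both dyes, and the loess step then shifts the ratio within each array. A level near 0 therefore need not mean equal signal in both dyes. For Z00020870-1, Tabby E17.5 replicate 2 had a level of 0.25, with processed signals of 174 in Cy3 and 23.7 in Cy5. Tabby E17.5 replicate 1 had a level of 1.11 with similar processed signals, 184 and 21.0. The share of each step in these levels was not tested. Of all probes, 32124 were bright enough to be tested, the 4 among them. Between 27195 and 30269 probes per array had a Cy3 signal that the scanner software marked as well above background. The correlation of replicate arrays over probes was r = 0.959 to 0.996. Probes of an array are not independent. Replicates were least alike for Tabby E17.5, whose log2 ratios differed with an SD of 0.425, and Tabby adult, with 0.309, against 0.114 to 0.217 in the other 8 groups. Every stage was hybridised on a slide of its own, with WT in positions 1 and 2 and Tabby in positions 3 and 4, so stage and slide cannot be told apart, nor can genotype and position. P1, P3 and P5 shared a scan day, and E17.5 and adult each had another.

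Z00077373-1 was on in the WT footpad from E17.5 to P5 and at background in the adult, and in Tabby it was faint or undetected throughout. At E17.5 the WT arrays read 1.57 and 1.95 in log2 ratio and the Tabby arrays -0.01 and 0.00. At P1 WT stood at 2.65 and 2.22, Tabby at 0.12 and 0.06. The WT level was highest at P3, with 3.77 and 3.23, when Tabby gave 0.63 and 0.36. All WT arrays lay above all Tabby arrays at these stages. By P5 WT had come down to 2.74 and 2.73, with Tabby at 0.31 and 0.44. In adults every array sat near 0, WT at 0.01 and 0.02 and Tabby at 0.00 and 0.04, and the genotypes overlapped.

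The detection flags followed the same course. Cy3 was well above background on all 8 WT arrays up to P5 and on neither adult WT array. In Tabby it was so on 3 arrays, 1 of P3 and both of P5. The Tabby processed Cy3 signals were 68.9 and 34.7 at P3 and 43.5 and 40.3 at P5, against 15.1 and 7.83 at E17.5 and 7.87 and 8.98 at P1. Tabby footpads thus gave a small Cy3 signal at P3, where WT read 1310 and 1010, and at P5, where WT read 698 and 707. At P1 WT read 687 and 426, and Tabby was not well above background.

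The log2 differences, Tabby minus WT, of Z00077373-1 at E17.5, P1, P3 and P5 were -1.77, -2.34, -3.01 and -2.36, each with an SE of 0.17 from limma. In adults the difference was 0.01 ± 0.17 (SE). Because Tabby was not well above background at E17.5 and P1, its folds there are lower bounds in the Cy3 channel, after loess and quantile adjustment of both dyes. Footpad RNA was in Cy3 on all arrays, so a dye bias constant for the probe is on both sides of each bound. Without a dye swap, a dye bias that varies with intensity could not be checked. WT was at least 3.21-fold higher at E17.5 and at least 4.11-fold higher at P1. Within WT, P3 was at least 8.14-fold and P5 at least 5.01-fold above the adult. With the Cy3 channel normalised alone, the same bounds were 2.89, 3.52, 6.77 and 4.35.

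Z00036698-1 had a broader WT plateau and never fell to background. The WT arrays read 1.25 and 1.38 at E17.5. They were level from P1 to P5, at 2.08 and 2.04, 2.11 and 2.14, and 1.93 and 2.14, and the arrays of P5 overlapped with those of P1 and P3. Adult WT arrays were down at 0.33 and 0.44. Cy3 was well above background on all 20 arrays, the 10 of Tabby included.

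The Tabby level of Z00036698-1 lay below WT at all 5 stages. Tabby arrays gave -0.38 and -0.16 at E17.5. After birth they gave 0.17 and 0.23 at P1, 0.13 and 0.04 at P3, and 0.30 and 0.08 at P5. Adult Tabby arrays were the lowest, at -0.89 and -0.57. The Tabby arrays were thus highest from P1 to P5, the stages of the WT plateau, at a lower level than WT. From E17.5 to the adult, in order of age, the differences were -1.59, -1.86, -2.04, -1.84 and -1.12 (SE 0.12 each), or 3-fold, 3.62-fold, 4.12-fold, 3.59-fold and 2.17-fold lower. These folds include the offset added to both dyes. The scanner software's own ratio, without that offset, gave wider differences of -2.61, -2.27, -2.45, -2.30 and -2.51 in the same order. The adult gap was thus the smallest of the 5 in the corrected ratio, but in the scanner software's ratio it was close to that of E17.5.

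**Figure D1:**
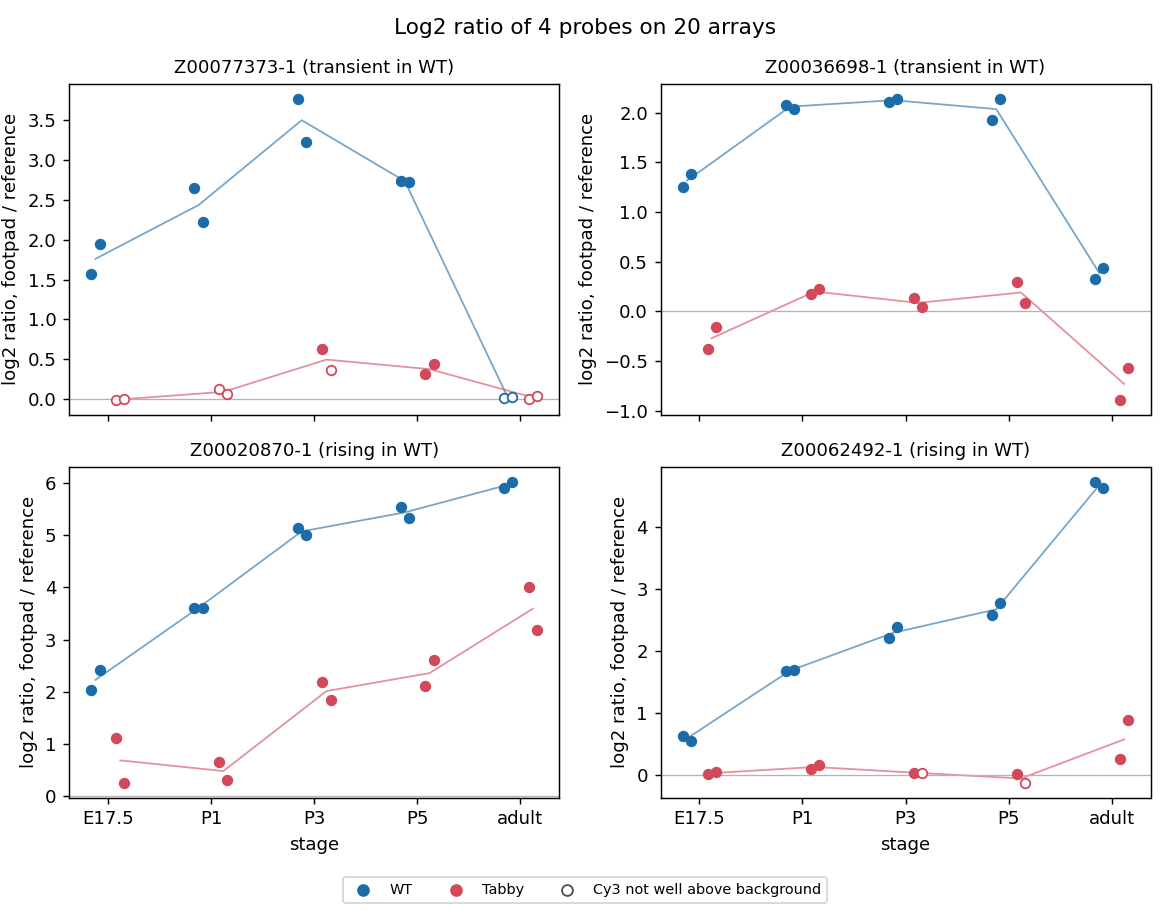
Log2 ratio of footpad over reference (y) by stage (x) for the 4 probes, 1 point per array, WT in blue and Tabby in red, with lines through the means of 2 arrays and open points where Cy3 was not well above background. The upper probes are high in WT before adulthood and the lower ones rise to the adult, where Z00020870-1 reaches 5.91 and 6.03 in WT against 4.00 and 3.18 in Tabby.

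In the corrected ratio, Z00020870-1 was higher in WT at each later stage, and in Tabby it was low up to P1 and higher from P3 on. WT arrays read 2.03 and 2.42 at E17.5, and both 3.61 at P1. They reached 5.14 and 5.01 at P3, 5.54 and 5.34 at P5, and 5.91 and 6.03 in adults. Tabby arrays gave 1.11 and 0.25 at E17.5, so in this ratio the Tabby replicates differed most at this stage. Their processed Cy3 signals were 184 and 174, and the scanner software's ratios 3.13 and 2.87. With Cy3 normalised alone, the adult Tabby replicates differed most, with an SD of 0.57 against 0.02 at E17.5. At P1 Tabby stood at 0.64 and 0.31, at P3 at 2.18 and 1.84, at P5 at 2.11 and 2.6, and in adults at 4.00 and 3.18. Both Tabby arrays were below both WT arrays of their stage throughout, and Cy3 was well above background on all 20 arrays. The adult Tabby level spanned the WT level of P1.

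The log2 difference of Z00020870-1 was -1.55 at E17.5, -3.14, -3.07 and -3.08 on P1, P3 and P5, and -2.38 in adults (SE 0.28 each). The smallest gap was that of E17.5 in this ratio, and that of the adult in the scanner software's ratio, which gave -1.18 at E17.5 and -1.10 in adults. By the corrected ratio the level was 2.92-fold lower at E17.5, 8.80-fold at P1 and 5.21-fold in adults. At E17.5 the difference was -1.11 without Tabby replicate 2 and -1.98 without Tabby replicate 1, and the arrays of this group were the replicates least alike over all probes. Their part in the result was not tested. The signal of this probe was reduced in Tabby footpads but not lost, since it was detected on every Tabby array.

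Z00062492-1 was the one whose Tabby level stayed near 0 while WT climbed. In WT it read 0.63 and 0.54 at E17.5 and 1.67 and 1.69 at P1. On P3 it read 2.20 and 2.38, on P5 2.57 and 2.77. Adult WT arrays were far above, at 4.73 and 4.62. The arrays of successive WT stages were separate at each step. Tabby arrays stayed between -0.13 and 0.15 from E17.5 to P5 and gave 0.25 and 0.89 in adults. Of the 10 Tabby arrays 8 had Cy3 well above background, all but replicate 2 of P3 and of P5.

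For Z00062492-1 the log2 difference in the corrected ratio went from -0.56 at E17.5 through -1.56 (P1), -2.26 (P3) and -2.73 (P5) to -4.10 in adults (SE 0.15 each), wider at each later stage. In the scanner software's ratio it was widest at P5, with -1.22, -2.51, -3.28, -4.19 and -3.26 in order of age. In the corrected ratio, which includes the offset, the E17.5 difference was 1.47-fold and the adult difference 17.2-fold. The E17.5 means were 0.58 ± 0.07 in WT and 0.03 ± 0.02 in Tabby (SD, n = 2). The adult value was -4.42 without Tabby replicate 2 and -3.78 without Tabby replicate 1.

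Of the 4 probes, 3 had both Tabby arrays below both WT arrays at all 5 stages, and Z00077373-1 at the 4 stages before adulthood. Among all probes tested this separation occurred in 19.8% at E17.5, in 16.0% at P1, in 27.8% at P3, in 26.3% at P5 and in 20.4% of the adult comparison, in 0.688% at all 5 stages and in 3.70% at 4 or more. Since the members were selected on this contrast, nothing is read from their count. The median difference over all probes tested was between -0.043 and 0.017 at the 5 stages.

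The order of the 10 group means differed between the pairs. For Z00077373-1 it ran WT P3, P5, P1 and E17.5, then Tabby P3 and P5, then the groups at background, and Tabby P3 and P5 did not separate from each other. For Z00036698-1 it ran through all 5 WT stages before the first Tabby group, with P1 and P5 overlapping in both genotypes. For Z00020870-1 it interleaved the genotypes: adult Tabby came beside WT P1, and WT E17.5 between Tabby P5 and Tabby P3, overlapping at each of these places. For Z00062492-1 all WT stages again came first, with WT E17.5 overlapping adult Tabby.

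Over the 20 arrays the log2 ratios of Z00077373-1 and Z00036698-1 correlated at r = 0.939, and those of Z00020870-1 and Z00062492-1 at 0.868. Across the pairs r was 0.322 to 0.495. These values describe arrays that share their stage, slide and genotype, and the members were chosen for these patterns. Within the 10 WT arrays the first pair had r = 0.953 and the second 0.895, and within the 10 Tabby arrays 0.560 and 0.401. Across the pairs all values within WT were negative, from -0.556 to -0.139. Within Tabby they ran from -0.579 to 0.194, and only that of Z00077373-1 with Z00020870-1 was positive.

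Since the Cy5 reference was described alike on all arrays, its signal was read for each probe as a check on the denominator of the ratio. For Z00036698-1 the processed Cy5 signal lay between 151 and 270 on all 20 arrays, a range of 1.79-fold, while Cy3 ranged over 27.2-fold. For Z00077373-1 Cy5 was well above background on 0 of 20 arrays, at 3.91 to 13.0. The denominator of its ratio is therefore a background value, and the size of its log2 differences depends on how the background was treated.

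For Z00020870-1 the Cy5 signal moved with the Cy3 signal. At E17.5 its processed Cy5 signal was 28.7 and 38.9 in WT and 21.0 and 23.7 in Tabby. It was 143 and 136 against 74.7 and 61.7 at P1, and 410 and 374 against 96.0 and 74.9 at P3. Later it was 585 and 670 against 95 and 100 (P5), and 1450 and 813 against 156 and 60.1 (adult). WT was thus above Tabby at every stage in the dye that carries no footpad RNA. The mean spot brightness before any correction did the same, from 62.7 to 740 in Cy5 over the arrays. The corresponding processed Cy3 signals of the adult arrays were 83000 and 54200 in WT and 4570 and 1710 in Tabby.

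Z00062492-1 showed the same split from P1 on. Cy5 of this probe was well above background on 17 of 20 arrays, all but Tabby P1 replicate 2 and both arrays of Tabby P3. Its Cy5 signal was 55.6 and 60.8 in WT against 42.3 and 38.2 in Tabby at P1, and 77.3 and 72 against 39.9 and 34.4 at P3. It was 90.7 and 102 against 43.7 and 37.4 at P5, and 441 and 341 against 55.0 and 37.7 in adults. At E17.5 the genotypes overlapped, with 48.3 and 63.5 in WT and 54.5 and 54.9 in Tabby. With Cy5 normalised alone, the adult Tabby minus WT log2 difference in the reference channel was -2.25 for Z00020870-1 and -1.38 for Z00062492-1, against -0.05 for Z00036698-1 and 0.04 for Z00077373-1. Both rising probes were among the 38 probes, 0.118% of those tested, with a Cy5 signal at least 2-fold lower in adult Tabby. At P5 the Cy5 difference of Z00020870-1 was -1.78 and that of Z00062492-1 -0.42.

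**Figure D2:**
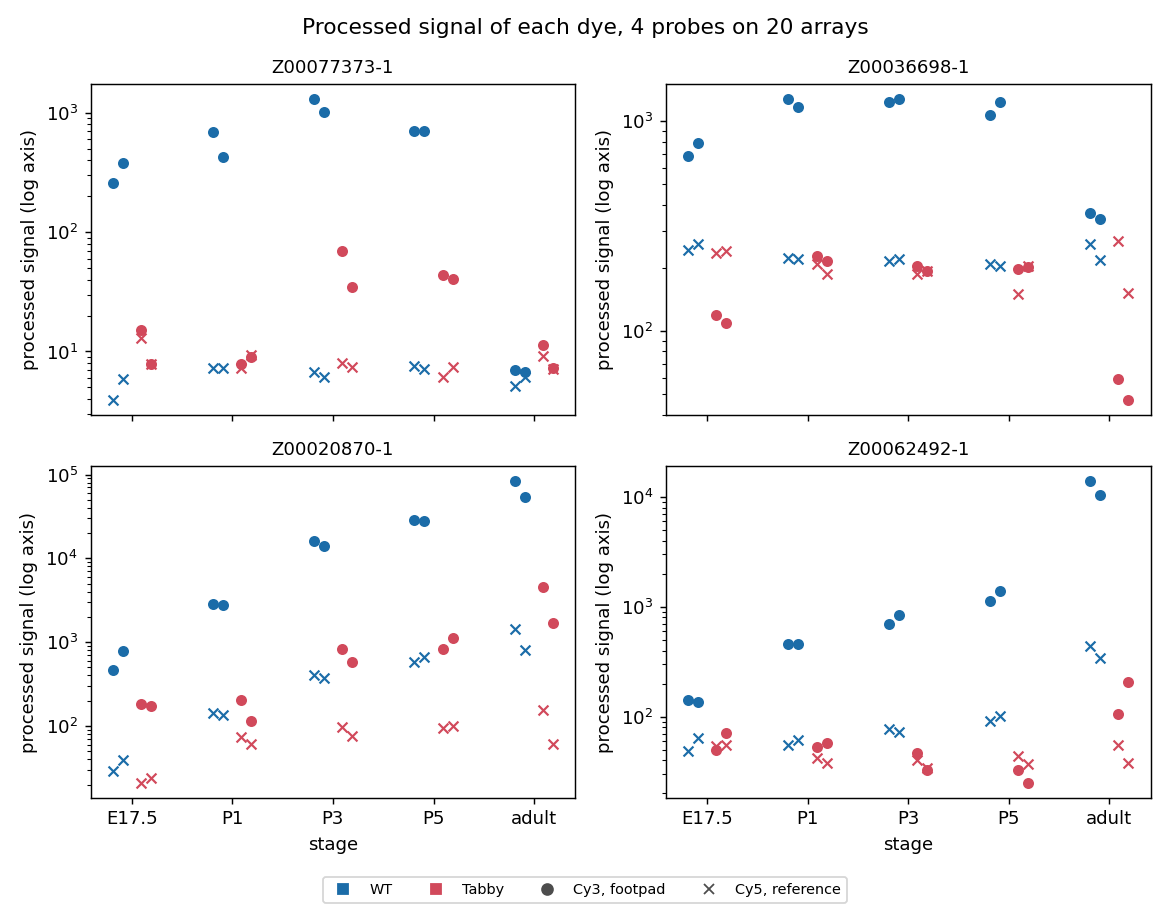
Processed signal (y, log axis) of Cy3 (circles, footpad RNA) and Cy5 (crosses, reference RNA) by stage (x), 1 mark per array and dye, WT in blue and Tabby in red. Cy5 of Z00036698-1 stays between 151 and 270, while that of Z00020870-1 climbs to 1450 and 813 on the adult WT arrays, those with the highest Cy3.

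The readout therefore sets the size of the genotype difference for the rising probes. In the Cy3 channel alone, Z00020870-1 was lower in Tabby by 2.39-fold at E17.5, by 8.60-fold at P1 and by 16.8-fold at P3. The log2 difference in adults was -4.11 in Cy3, -2.38 in the ratio and -1.10 in the scanner software's ratio. The Cy3 difference was 24.9-fold at P5 and 17.3-fold in adults, so in each of these readouts the adult gap was smaller than that of P5. For Z00062492-1 the adult differences were -4.75, -4.10 and -3.26 in the same order, and for Z00036698-1 -1.11, -1.12 and -2.51.

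For Z00077373-1 the differences before adulthood were negative in each of these readouts. With the scanner software's ratio its difference on the 4 earlier stages was -5.93, -6.16, -4.83 and -3.94. In Cy3 alone it was -1.53, -1.82, -2.48 and -1.91. Since Tabby was not well above background at E17.5 and P1, the gaps of these stages have no order against those of P3 and P5. In adults all these readouts were within 0.1 of 0.

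**Figure D3:**
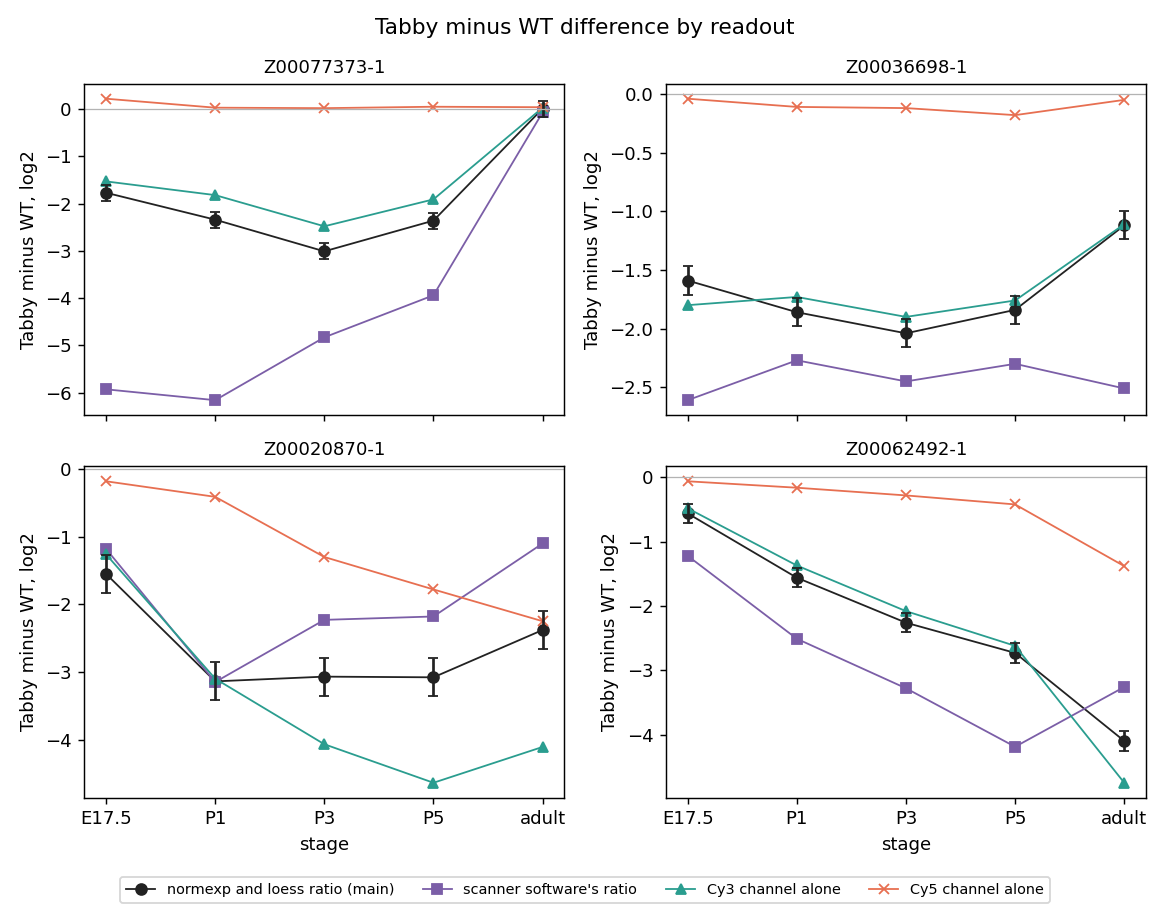
Tabby minus WT difference in log2 (y) by stage (x) for each probe, from the normexp and loess ratio (black, bars are ± SE), the scanner software's ratio (purple), the Cy3 channel alone (green) and the Cy5 channel alone (orange). Cy5 stays near 0 for the upper probes and falls to -2.25 and -1.38 in adults for Z00020870-1 and Z00062492-1.

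WT steps between stages likewise depended on the readout and its normalisation. From E17.5 to P1 the WT ratio of Z00036698-1 rose by 0.74 in log2, and its Cy3 signal, quantile-normalised alone, by 0.13. Its processed Cy3 signal went from 686 and 787 to 1270 and 1170 in WT, and its processed Cy5 signal from 244 and 259 to 224 and 221. For Z00077373-1 that step was 0.67 in the ratio and 0.22 in Cy3. The later fall held in both: from P5 to the adult Z00036698-1 fell by 1.65 in log2 in the ratio and by 1.39 in Cy3. From E17.5 to the adult Z00020870-1 gained 13.4-fold in the ratio and 44.4-fold in Cy3 in WT, and Z00062492-1 17.1-fold and 24.0-fold. The rise of Z00020870-1 was smaller in the scanner software's ratio, with WT means of 4.18 at E17.5 and 5.95 in adults in log2. For Z00062492-1 these means were 1.33 and 4.96.

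The Tabby course over the stages and the change from P1 to the adult in Tabby are given as descriptions as well, since the Tabby values had a part in the choice of the members. A moderated F test over the 5 Tabby stages was passed by 3 of the 4 probes, all but Z00077373-1 (limma, called at a Benjamini-Hochberg adjusted p under 0.05 over the 32124 probes), against 75.4% of all probes tested. Nothing is read from that count. Z00062492-1 no longer passed without Tabby adult replicate 2, and without any 1 WT array of E17.5, P1 or P3 Z00077373-1 passed too.

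Between P1 and the adult, Z00020870-1 differed in Tabby by 3.12 ± 0.28 in log2 (SE), 8.67-fold higher in the adult, and both adult Tabby arrays were above both P1 arrays. In Cy3 alone the adult Tabby level was 8.08-fold that of P1. Over the same interval WT was higher in the adult by 16.2-fold in Cy3 and 5.14-fold in the ratio. The Tabby step was thus the smaller one in Cy3 and the larger one in the ratio, and the difference between the steps was not tested.

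Adult minus P1 for Z00036698-1 was -0.93 ± 0.12 in log2 in Tabby (SE), 1.91-fold lower, next to -1.68 in WT. For Z00062492-1 it was 0.45 ± 0.15 in Tabby (SE), 1.37-fold higher, next to a WT difference of 3.0. This Tabby value depended on single arrays, at 0.13 without Tabby adult replicate 2 and 0.77 without Tabby adult replicate 1. Z00077373-1 differed by -0.07 ± 0.17 (SE), with both groups below detection. By the limma fit 25.7% of all probes were called higher and 23.7% lower in adult than in P1 Tabby footpads, 8258 and 7600 probes, and with median centring in place of loess 3644 and 5634. The members had 2 called higher and 1 lower, from which nothing is read. The call of Z00062492-1 was lost without Tabby adult replicate 2 or either Tabby P1 replicate. Slide and scan day changed with these stages and cannot be told apart from age.

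**Figure D4:**
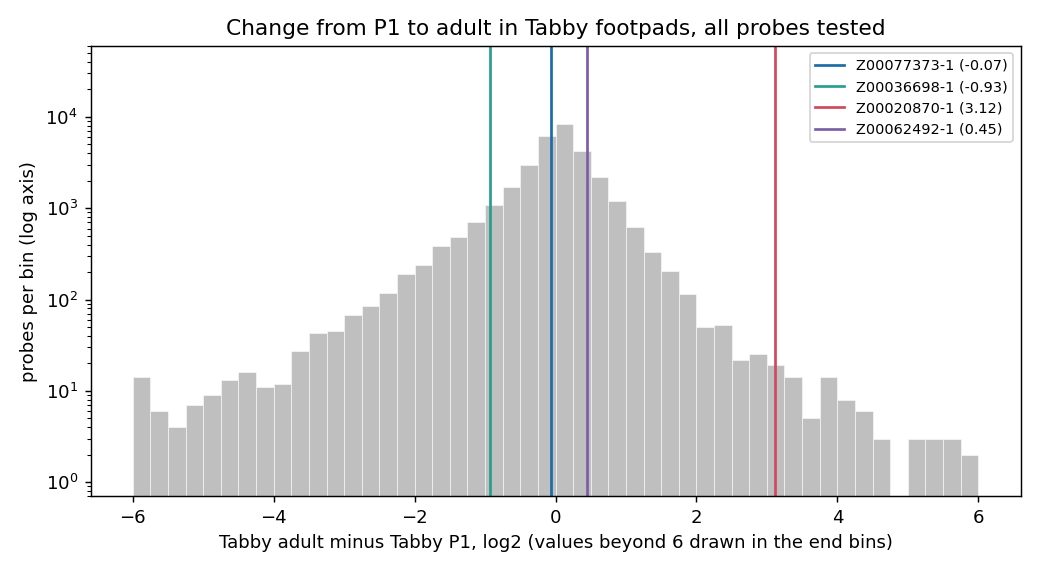
Number of probes per bin (y, log axis) by the log2 difference of adult minus P1 Tabby footpads (x) over the 32124 probes tested, with coloured lines at the 4 probes. Z00020870-1 lies in the right tail at 3.12, Z00036698-1 at -0.93, Z00062492-1 at 0.45 and Z00077373-1 near the centre at -0.07.

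The probes most like each member were taken as the 3 with the highest Pearson correlation of the log2 ratio over the 20 arrays. For Z00077373-1 they were Z00036698-1 (r = 0.939), Z00078117-1 (0.843) and Z00054739-1 (0.835). For Z00036698-1 they were Z00077373-1, Z00054739-1 (0.907) and Z00078117-1 (0.896), so the same 2 further probes stood nearest to both transient members. Tabby minus WT for Z00054739-1 was -1.18, -1.20, -1.34, -1.43 and -0.41 in log2, in the order of the stages. For Z00078117-1 it was -0.66, -0.72, -0.97, -0.42 and -0.57.

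Nearest to Z00020870-1 were Z00022365-1 (r = 0.919), Z00023608-1 (0.915) and Z00035087-1 (0.908). Nearest to Z00062492-1 were Z00074809-1 (0.952), Z00022365-1 (0.943) and Z00023608-1 (0.939). Z00022365-1 and Z00023608-1 thus stood near both rising members. Tabby minus WT for Z00022365-1 was -0.60 at E17.5 and -1.0 at P1, then -1.78, -2.52 and -2.43 at the later stages. Z00035087-1 differed by -0.11 at E17.5 and -1.05 in adults, with -3.22 at P5. For Z00074809-1, the probe most like Z00062492-1, the differences were smaller, at -0.05, -0.37, -0.46, -0.60 and -1.14 in order of age. For Z00023608-1 they were -0.29, -0.69, -1.55, -2.05 and -1.98. None of these probes shares 30 bases with a member.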

How the data were processed

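Agilent Feature Extraction 9.5.1.1 produced the array files, per the file headers. Each deposited file gives an intensity per dye (mean signal, local background, processed signal) and the log10 ratio of Cy5 to Cy3. A deposited table of log10 values (25030 probes, 3 of the 4 members) states neither direction nor centring. Its values followed footpad over reference in the array files plus a constant per probe (median SD within a probe 3.1e-05), constant within 0.001 for 64.4% of probes. For the others the centring is unknown. Its column medians were 2.53 to 2.59, and it served as an alternative.

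Mean signals were corrected with normexp (offset 50) and loess within each array (limma 3.58.1, R 4.3.3). Control spots and outlier spots had no weight in the loess, and outlier spots were set to missing. Probes needed a Cy3 signal well above background on at least 2 arrays and a value in every group. One limma model over all 20 arrays had a coefficient for each of the 10 groups, with two-sided tests and Benjamini-Hochberg adjustment over all probes tested. The fit was tested on simulated data. Its p-values for the members are not given, since the same arrays entered their choice. Cy3 alone and Cy5 alone were normexp-corrected and quantile-normalised between arrays. An exact test of 2 against 2 arrays cannot go below p = 0.333. Replicates are biological per the labels. Precision is limited by having 2 arrays per group.

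The members and lists were chosen with earlier results of these data known. Named probes are the members and, for each, the 3 most correlated probes. Lists of ectodysplasin pathway, sweat gland and cell type marker genes could not be used, since no probe carries a gene name.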

Additional observations from a re-analysis of the deposited data

Results flagged for a closer look

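In a few intervals the WT arrays of a probe all moved one way and the Tabby arrays all the opposite way. These differences between the genotypes were not tested. The SE of a change between stages was 0.17 for Z00077373-1, 0.12 for Z00036698-1 and 0.15 for Z00062492-1. Z00077373-1 changed from E17.5 to the adult by -1.75 in log2 in WT and by 0.02 in Tabby, where it was not well above background. Z00036698-1 changed from P1 to P3 by 0.07 in WT and -0.12 in Tabby. For Z00062492-1 the WT and Tabby changes were 0.61 and -0.09 from P1 to P3, 0.38 and -0.09 from P3 to P5, 0.99 and -0.18 from P1 to P5, and 2.09 and -0.08 from E17.5 to P5. Replicate groups of 2 arrays are too small for a search for outlying arrays.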

How the results depend on the processing

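Settings were changed singly: no background subtraction, a normexp offset of 10, the scanner software's ratio, the deposited value table, Cy3 alone, 1 scale for all arrays, median centring, no filter on dim probes, array weights, a trended robust fit, the replicate block, Tabby arrays alone for the Tabby course, and each of the 20 arrays left out. The value table lacks Z00062492-1. The mean Tabby minus WT difference over the 5 stages stayed negative for each member under all of them. Its main values were -1.90, -1.69, -2.64 and -2.24 for Z00077373-1, Z00036698-1, Z00020870-1 and Z00062492-1. In that order the scanner software's ratio gave -4.19, -2.43, -1.97 and -2.89, and median centring -1.67, -1.53, -2.28 and -1.91. The value table gave -3.83, -2.43 and -1.97 for the first 3. An offset of 10 gave -2.73 for Z00077373-1, -2.06 for Z00036698-1 and -2.64 for Z00062492-1, and Cy3 alone gave -1.54 for Z00077373-1 and -3.44 for Z00020870-1. The other settings moved these means by less than the spread between replicates.

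Adult minus P1 of Z00062492-1 in Tabby, 0.45 with the reported settings, was no longer called with median centring (0.34) or with the Tabby arrays alone (0.45), and ranged from 0.13 to 0.77 with 1 array left out. Its Tabby course over the stages was no longer called with array weights, median centring, the Tabby arrays alone and without Tabby adult replicate 2. That of Z00077373-1, not called with the reported settings, was called with the scanner software's ratio, the value table, an offset of 10, no background subtraction, the Tabby arrays alone and without any 1 of the WT arrays of E17.5, P1 or P3. The causes were not tested. Median centring left 3644 probes called higher in adult than in P1 Tabby footpads, against 8258. Replicate numbers only name the samples: deviations of same-numbered WT and Tabby arrays correlated at -0.0723 to 0.224 over the stages, and with the replicate block 24205 probes, against 24208, passed for the Tabby course and no member's call changed. Low signal limits Z00077373-1 most, since its reference signal was at background on all arrays.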

Other observations

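The reference channel was set beside the footpad channel over all probes, a comparison chosen after the values of the 4 probes were seen. Among the 48 probes with a Cy3 signal at least 8-fold lower in adult Tabby than in adult WT footpads, Cy5 was lower too for 44, 91.7%, with a median log2 difference of -0.319 in Cy5 beside -3.67 in Cy3. Over all 32124 probes tested the Cy5 difference was below 0 for 48.0%, with a median of 0.004. Z00020870-1 and Z00062492-1 are themselves among the 48, with adult Cy3 differences of -4.11 and -4.75. At -2.25 in Cy5, Z00020870-1 lay below the lower quartile of the 48, which was -0.880, as did Z00062492-1 at -1.38. Why the signal of a reference described alike on all arrays differs between them for such probes was not tested.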
